A study of Mus musculus with 4 samples.

Results

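The genes described here are Per1, Dbp, Tef and Rora, a clock gene, a pair of clock-controlled transcription factors and a nuclear receptor of the clock. They were chosen by gene symbol: every feature of the array table whose platform symbol is one of the 4 names was taken, which gave 5 features of 16281 in all, 2 for Per1 (feature numbers 9654 and 17780) and 1 each for Dbp (3151), Tef (6732) and Rora (15772). All 5 had a value on every array. The genes had been proposed for their ratios on these same arrays, so their values are given as a description and no test of them is printed.

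The study hybridised RNA of the dentate gyrus, a hippocampal region built mainly of granule neurons, from young male C57BL/6J mice on 4 two-colour arrays, 1 each at 1, 2, 4 and 6 h. On each array the Cy5 channel held RNA of mice given MK-801 (dizocilpine), which blocks NMDA receptors for glutamate, at a labelled dose of 300 µg per g body weight, and the Cy3 channel held RNA of mice given saline at 5 µL per g. The labels count the hours from a last shock treatment of the MK-801 mice and call the mice of both channels controls, so it is unsettled whether any mouse used here received shocks; the clock time of dissection and the number of mice per channel are not given in these sources. No array repeats a time and no array has the dyes turned round, so no single value has an error from replicates, and treatment and dye cannot be told apart.

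The values are log ratios of the channels, read as log2 and centred on the median of each array. The base of the logarithm and the direction of the ratio are not stated, so signs are those of the deposited table: a negative value may mean that the MK-801 channel held less RNA of the gene, or that it held more, in the same way on all 4 arrays. A ratio carries no level, so neither the abundance of these transcripts nor the purity of the tissue can be read from it. Of 10 granule cell markers 3 were on the array with a value, among them Prox1, the transcription factor that defines these neurons. The 1 h array ran apart from the others: across 8777 features with a value on all arrays, which are not independent replicates, the correlation of 1 h with 2 h was r = -0.06, and that of 4 h with 6 h was r = 0.80. In tissue RNA, fewer cells of a type and less RNA per cell cannot be told apart.

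The circadian clock is a feedback loop of transcription. CLOCK and BMAL1 (gene Arntl) bind E-boxes and switch on the Per and Cry genes, whose proteins return to the nucleus and block their own activators. Per1 also answers directly to signals from outside the loop through cyclic AMP response elements, and in the suprachiasmatic nucleus, the master clock of the hypothalamus, glutamate acting on NMDA receptors induces it after light. DBP and TEF are related factors of the PAR bZIP family that carry the rhythm to other genes through D-boxes, and RORα (gene Rora) activates Arntl through ROR elements, where REV-ERB proteins oppose it.

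The letters of these elements are shown in the 250 bases before the annotated starts of Per1 and Tef, because these windows hold matches and the course of Per1 was read by 2 features. All are on the plus strand of assembly GRCm38.p6 and come from RefSeq, in which all 4 genes have an entry. Capitals mark matches, on either strand, to the E-box CACGTG, the D-box TTATGNAA, the cyclic AMP core TGACG or the ROR core AGGTCA. The full cyclic AMP element TGACGTCA, which holds TGACG on both strands, was searched as well. The letters were chosen with the windows in view.
Per1, upstream start, chr11:69098699-69098948: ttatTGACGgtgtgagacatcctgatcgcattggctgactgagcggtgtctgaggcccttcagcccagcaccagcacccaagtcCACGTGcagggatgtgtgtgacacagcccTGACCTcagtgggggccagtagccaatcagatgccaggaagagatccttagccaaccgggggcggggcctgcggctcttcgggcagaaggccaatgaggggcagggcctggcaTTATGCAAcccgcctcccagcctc
Per1, downstream start, chr11:69099902-69100151: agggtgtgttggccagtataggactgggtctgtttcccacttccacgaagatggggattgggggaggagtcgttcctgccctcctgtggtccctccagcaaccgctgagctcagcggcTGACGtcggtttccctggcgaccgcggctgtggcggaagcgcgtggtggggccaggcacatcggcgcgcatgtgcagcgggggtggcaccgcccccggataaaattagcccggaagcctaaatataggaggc
Tef, upstream start, chr15:81802423-81802672: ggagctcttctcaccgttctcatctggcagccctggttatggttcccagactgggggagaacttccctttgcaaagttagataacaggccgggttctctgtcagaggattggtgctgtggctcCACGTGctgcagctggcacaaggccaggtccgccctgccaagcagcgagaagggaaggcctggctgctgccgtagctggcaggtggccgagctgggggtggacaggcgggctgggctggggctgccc
Tef, downstream start, chr15:81811164-81811413: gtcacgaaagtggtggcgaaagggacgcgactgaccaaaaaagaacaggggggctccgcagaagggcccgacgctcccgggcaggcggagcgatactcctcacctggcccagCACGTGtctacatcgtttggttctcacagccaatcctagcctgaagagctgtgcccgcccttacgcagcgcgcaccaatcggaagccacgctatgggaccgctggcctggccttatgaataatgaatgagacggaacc
The upstream Per1 window held 1 E-box, 1 D-box, 1 cyclic AMP core and 1 ROR core, and the downstream window held 1 cyclic AMP core. Both Tef windows held 1 E-box. Of 32851 promoter windows of this length in the table, 6.02% held the E-box, 3.07% the D-box, 17.8% the cyclic AMP core, 14.0% the ROR core and 1.55% the full cyclic AMP element. The windows of Dbp (chr7:45704997-45705246) and Rora (chr9:68653536-68653785) held none of the 5 sets of letters. These matches describe the windows only.

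The features of the 4 genes showed 4 different courses, read on 1 array per time and, apart from Per1, by 1 feature each. Per1 was negative on every array with both features and changed little with time. Dbp turned from positive at 1 h to negative at 4 and 6 h. Tef was positive at 2 h and close to 0 at the other times, and Rora was negative throughout and lower at each later time. The features listed within 5 numbers of Rora were low too at 2, 4 and 6 h. Relative to their median the mean of Rora over the 4 arrays was 0.31.

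**Figure D1:**
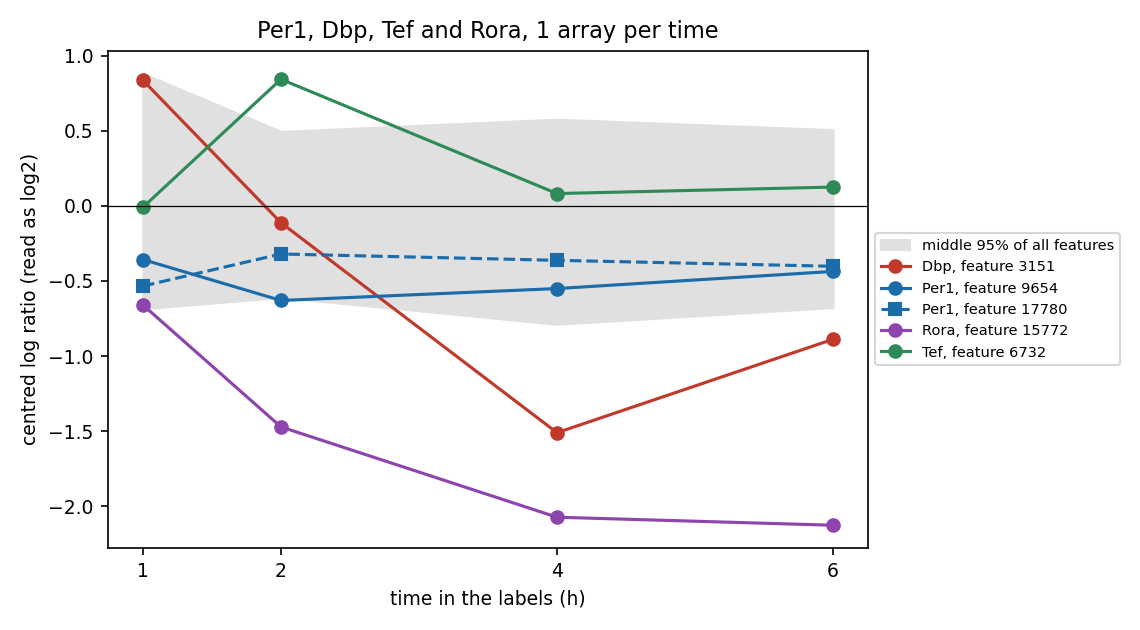
Centred log ratio (vertical axis, read as log2) of the 5 features of Per1, Dbp, Tef and Rora at 1, 2, 4 and 6 h (horizontal axis), 1 point per array, with the middle 95% of all features with a value on each array in grey. The Per1 lines run level between -0.63 and -0.32, Dbp crosses 0 between 1 and 2 h, Tef lies above the grey band at 2 h, Rora lies below it from 2 h on and Dbp at 4 and 6 h, and Per1 feature 9654 just below it at 2 h.

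Per1 is the arm of the loop that answers most quickly to stimuli. Feature 9654 read -0.36, -0.63, -0.55 and -0.44 on the 1, 2, 4 and 6 h arrays. Feature 17780 read -0.53, -0.32, -0.36 and -0.40 on the same arrays. All 8 values lay on the same side of 0, with no order in time that both features share: the lowest value came at 2 h for one and at 1 h for the other. The means over the 4 arrays were -0.49 ± 0.12 for feature 9654 and -0.40 ± 0.09 for feature 17780 (SD over the 4 times), ratios of 1.28 to 1.55 times at single times for the first and 1.25 to 1.45 times for the second. Among all features with a value, feature 9654 stood at percentile 12.7 at 1 h and between 2.35 and 5.18 later, and feature 17780 between 5.40 and 9.29 on the 4 arrays.

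The Per1 values were moderate in size and were held on every array by both features. Of 8777 features with values on all arrays, 37 (0.422%) were at or below -0.3 on each of the 4, and both Per1 features were among them. Of 938 genes with 2 or more such features, Per1 was the 1 gene whose features were all at or below -0.3 on every array, a level chosen after its values were seen. At a level of -0.2 there were 2 such genes, Per1 and Hipk2, a nuclear kinase, and at -0.1 there were 8. Negative values of any size on every array were shared by all features of 36 of the 938 genes.

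The difference between the 2 Per1 features was 0.18, 0.31, 0.19 and 0.03 in order of time. For 868 genes with exactly 2 features the median difference on the same arrays was 0.23, 0.17, 0.16 and 0.13, so the Per1 features lay closer together than the median pair at 1 and 6 h and further apart at 2 and 4 h. The mean of the features was -0.45, -0.48, -0.46 and -0.42 at 1, 2, 4 and 6 h. The difference between features holds no variation among mice.

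**Figure D2:**
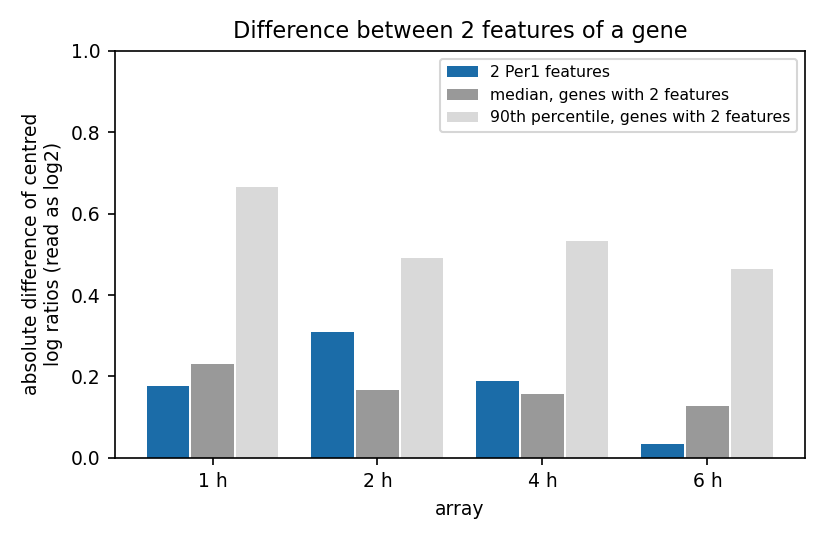
Absolute difference between 2 features of a gene (vertical axis, centred log ratio read as log2) on each array (horizontal axis): the Per1 pair in blue, the median and the 90th percentile of 868 genes with 2 features in dark and light grey. The Per1 bars, 0.18, 0.31, 0.19 and 0.03, all stay below the 90th percentile.

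The named features whose 4 values came closest to those of Per1 feature 9654, by the root mean square difference over the 4 arrays, were Psen2, a presenilin of the γ-secretase complex (0.08), Ptchd4 (0.11) and Iqgap1, a cytoskeletal scaffold (0.11). For feature 17780 they were Hipk2 (0.05), Pygo1, a Wnt pathway cofactor (0.05), and Epha7, an ephrin receptor (0.08). Of features with nearby numbers on the array list, those within 5 of feature 9654 had a median of -0.07 on the 1 h array, 0.16 at 4 h and 0.20 at 6 h, and those within 5 of feature 17780 had medians of -0.11, -0.16, -0.15 and -0.15 at 1, 2, 4 and 6 h. Both Per1 features were lower than these medians at every time at which at least 3 neighbours had a value. Neighbours lower than feature 17780 itself numbered 2, 2, 2 and 1 in order of time, and those lower than feature 9654 numbered 0, 0, 0 and 1. Stag3, 1 of the neighbours of feature 17780, was lower than it on each array, at -0.76, -0.53, -0.85 and -0.62. At 2 h feature 9654 had 2 such neighbours with a value, and no median was taken.

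Dbp encodes the D-box factor whose transcript has one of the steepest daily rhythms known in liver. Its feature read 0.84, -0.11, -1.51 and -0.89 in order of time, ratios of 1.79, 1.08, 2.85 and 1.85 times. The 1 h value was high, at percentile 97.2 of all features on that array, the 2 h value was near 0, and the 4 and 6 h values were low, at percentiles 1.74 and 1.64. The distance between its highest and lowest value was 2.35, and 30 of 8777 features, Dbp included, covered at least that distance. The fall between 1 and 4 h, also 2.35 and a ratio of ratios of 5.09 times, was equalled or exceeded by 25 features, Dbp among them.

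The mean of Dbp over the arrays, -0.42 ± 1.01 (SD over the 4 times), describes none of them: it was -0.84 without the 1 h array and -0.05 without the 4 h array. The gene had 1 feature, so no second reading bears on its course. Of the 9 features listed within 5 numbers of it, the number with a value was 2, 1, 1 and 2 on the 1, 2, 4 and 6 h arrays. One of them, Fmr1, the fragile X gene, read -1.26 at 6 h, and Tpsab1, a mast cell tryptase, read 1.09 at 1 h. The features nearest to Dbp in pattern were Elf4, an ETS transcription factor (0.59 at 1 h and -0.92 at 6 h, root mean square difference 0.33), Fbxo4 (0.34) and Mospd4 (0.34).

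Tef encodes the relative of DBP first described in thyrotroph cells of the pituitary. Its feature read -0.01, 0.84, 0.08 and 0.13 in order of time, and the 2 h value is a ratio of 1.80 times. One array was high and the other 3 were near 0. Of 12227 features with a value at 2 h, 5 were at or above Tef, itself included. The 2 h value exceeded the mean of the other 3 times by 0.78, which 7 of 8777 features equalled or passed, Tef among them, while the median feature differed by 0.01. The mean over the arrays was 0.26 ± 0.39 (SD over the 4 times) and 0.07 without the 2 h array.

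The neighbours of Tef by feature number had medians of 0.16, 0.10, -0.03 and 0.05 at 1, 2, 4 and 6 h, and at 2 h all 8 with a value were below it. The sodium channel gene Scn7a, one of them, read 0.78 at 2 h and 1.14 at 1 h. Mrpl9, a mitochondrial ribosomal protein gene and another neighbour, read 0.03, 0.59, 0.43 and 0.50 at 1, 2, 4 and 6 h. The features closest to Tef in pattern were Clec3b, which encodes tetranectin (0.04, 0.75, 0.12 and 0.25, root mean square difference 0.08), Fancc of the Fanconi anaemia DNA repair pathway (0.09) and Ndufa9, a subunit of respiratory complex I (0.15). Clec3b and Fancc lay 156 and 240 feature numbers from Tef, and Ndufa9 lay 6429 away. The part of feature number in the Tef ratios was not tested. At 2, 4 and 6 h Tef was positive where Dbp, its relative, was negative.

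Rora encodes a nuclear receptor that activates Arntl and is needed for the development of cerebellar Purkinje cells. Its feature read -0.66, -1.47, -2.07 and -2.13 in order of time, the lowest values of the 4 genes at each time, with ratios of 1.58, 2.77, 4.21 and 4.37 times. All 4 arrays were negative, and the 4 and 6 h values nearly coincided. The mean was -1.58 ± 0.68 (SD over the 4 times). On the 4 arrays the feature stood at percentiles 2.85, 0.523, 1.55 and 0.942 of all features.

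The low values of Rora were shared by the features listed around it. At 2, 4 and 6 h an unbroken run of 15 features with a value, from number 15761 to number 15777, lay at or below -0.5, and Rora was one of them. The medians of this run were -2.73, -3.42 and -2.58 at 2, 4 and 6 h, and 12, 11 and 11 of its features were lower than Rora. The features just outside it were near 0: number 15760 read 0.11 and number 15778 read 0.04 at 4 h. The run held genes of unlike function, among them Hes1, a repressor of the Notch pathway (-3.74 at 4 h), Wnt10b, a secreted Wnt ligand (-2.44), Sdc3, a heparan sulfate proteoglycan (-3.84), Akt2, a kinase of insulin signalling (-3.40), and Neurod4, a neuronal differentiation factor (-2.43). At 1 h the unbroken run was 3 features long, but 9 of 14 features with a value in the same stretch were at or below -0.5, among them Sdc3 (-1.75) and Hes1 (-1.20).

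**Figure D3:**
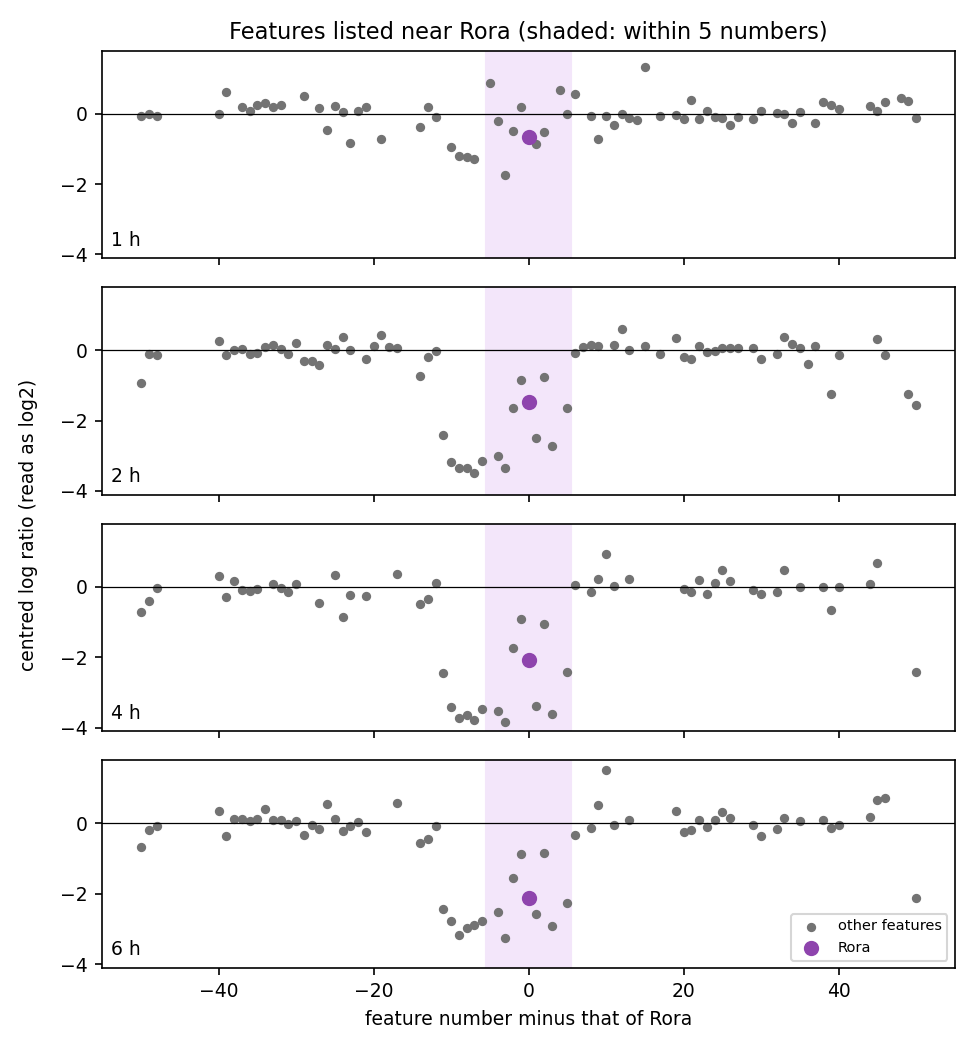
Centred log ratio (vertical axis, read as log2) of every feature with a value whose number lies within 50 of that of Rora (horizontal axis, feature number minus that of Rora), 1 panel per array, with Rora in purple and the numbers within 5 shaded. At 2, 4 and 6 h the 15 features of the run lie below 0; the features around it have medians of 0.02, -0.03 and 0.03, with 3, 1 and 1 of them at or below -1.

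Set against the median of the features within 5 numbers, Rora differed by -0.45 at 1 h and by 0.60, 0.84 and 0.26 at 2, 4 and 6 h, a mean difference of 0.31, of the opposite sign to its own mean. Of the 10 features within 5 numbers, 5 belonged to genes with another feature elsewhere that had a value. The other feature of Akt2 read 0.14 at 4 h and that of Psg17, a pregnancy-specific glycoprotein, 0.32, where their features beside Rora read -3.40 and -3.53. That of Arhgef2 read -0.26 at 4 h, against -3.63 beside Rora. Nxf1, the mRNA export receptor, differed from these, with -2.62 for the other feature and -0.91 beside Rora, and Capn9 had no value beside Rora at 4 h. Among features with values on all arrays, 12 of 51 (23.5%) within 50 numbers of Rora, itself included, were at or below -1 at 4 h. Elsewhere 41 of 8726 (0.470%) were. Rora had no second feature, and the part of this run in its ratios was not tested. What a feature number says of the place of a spot on the slide is not given in these sources.

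By root mean square difference, the features nearest to Rora lay near it in number too. They were Slc30a1, a zinc exporter (number 15835, root mean square difference 0.13), Igfbpl1 (15720, 0.27) and Lin7c, a synaptic scaffold (15868, 0.32), all within 100 numbers, a stretch that held 105 of the 8777 features. By Pearson correlation over the 4 arrays the nearest were Pgm2l1, Inava and Tmem128, which lay 5597, 6983 and 5710 numbers away. Rora is strongly expressed in thalamus, which borders the hippocampus. Of 7 other thalamus markers 5 were on the array, and 3 of their features had values on all arrays, with medians of 0.04, -0.15, -0.29 and -0.35 at 1, 2, 4 and 6 h and a range from -0.67 to 0.54 at 6 h. Their part in the Rora ratios was not tested. Of 10 genes listed as Rora targets in Purkinje cells, 4 had 6 such features, with medians of -0.21, -0.09, -0.07 and -0.12. The 2 features of Slc1a6, a Purkinje glutamate transporter, disagreed, at 0.43, -2.54, -2.79 and -2.86 for one and -0.38, -0.08, -0.11 and -0.11 for the other. Calb1 read -0.23, -0.21, -0.16 and -0.14 in one feature and -0.19, -0.10, -0.03 and 0.02 in the other. Cacna1g read -0.32, -0.09, -0.04 and -0.26 in one feature, and its other feature -0.67, -0.80 and -0.68 at 2, 4 and 6 h. Pcp4 was positive, at 0.05, 0.31, 0.18 and 0.13 in one feature and 0.19, 0.22 and 0.09 at 1, 4 and 6 h in the other. Shh read 0.09 at 1 h and 0.27 at 2 h, and Pcp2 read 0.08 at 2 h alone. None of the 6 features passed in limma for the mean, with 2 negative at an unadjusted p under 0.05 (7.85% of all features), and without the 1 h array the low Slc1a6 feature passed as negative (adjusted p = 0.000123), beside a share of 5.59% of all features.

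Counted against a log ratio of 0.5 at single times, the 5 features gave 1 positive at 1 h (Dbp), where 9.03% of all features with a value were past this level, and 2 negative (Rora and Per1 feature 17780), where the share was 6.37%. At 2 h there was 1 positive (Tef, share 2.48%) and there were 2 negative (Rora and Per1 feature 9654, share 3.88%). At 4 h there were 0 positive (share 3.85%) and 3 negative (Dbp, Rora and Per1 feature 9654, share 5.21%), and at 6 h 0 positive (2.68%) and 2 negative (Dbp and Rora, 4.09%). With the arrays brought to equal spread, Per1 feature 17780 at 1 h (-0.41) was no longer past the level and Per1 feature 9654 at 6 h (-0.52) was. The genes were chosen from these ratios, and nothing is read from the counts.

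The other genes of the clock, from a list of 22, are given beside them. Of these 14 had a value on at least 1 array, and 8 had a value on all arrays, through 10 features. The median of those 10 was between -0.04 and 0.05 on each array, where that of all 8777 features was between -0.03 and 0.00. Of the partner genes of Per1, Per2 read -0.12, 0.15, -0.12 and -0.07, and Per3 had a value at 4 h alone, -0.24. Cry1, the repressor that pairs with the Per proteins, was positive from 2 h on in both features, at -0.08, 0.56, 0.53 and 0.40 for feature 670 and 0.02, 0.23, 0.18 and 0.24 for feature 5125. Cry2 had 1 value, -0.37 at 4 h.

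The activators of the loop were near 0 at 1 h. Arntl, the target of Rora, read -0.01, 0.19, 0.23 and 0.22 at 1, 2, 4 and 6 h, and Clock read -0.16, -0.04, -0.06 and -0.16. Npas2, which can stand in for Clock in forebrain, read -0.12 at 2 h and -0.09 at 6 h. Nr1d2, which encodes REV-ERBβ and opposes Rora on ROR elements, had features at 0.19, -0.11, -0.03 and 0.00 and at -0.11, -0.28, -0.10 and -0.07. Nfil3, the repressor on D-boxes that DBP and TEF compete with, read 0.29, 0.11, -0.10 and -0.01. Bhlhe40, a repressor on E-boxes, read -0.10, -0.02, -0.32 and -0.18, and Bhlhe41 read 0.47 at 1 h alone. The kinases that mark Per proteins for degradation differed, with Csnk1d at 0.52, -0.01, 0.24 and 0.04 and Csnk1e at -0.42, 0.28 and 0.25 at 1, 2 and 4 h. At 1 h 2 of 13 features of the list with a value were at or above 0.5, Csnk1d and Timeless (1.00, with no later value), beside 9.03% of all features. Cry1 feature 670 was the 1 of 12 at 2 h and the 1 of 13 at 4 h, beside 2.48% and 3.85% of all features. At 6 h 0 of 11 were at or above 0.5, beside 2.68%. At or below -0.5 there were 0 at each time, beside 6.37%, 3.88%, 5.21% and 4.09% of all features at 1, 2, 4 and 6 h.

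**Figure D4:**
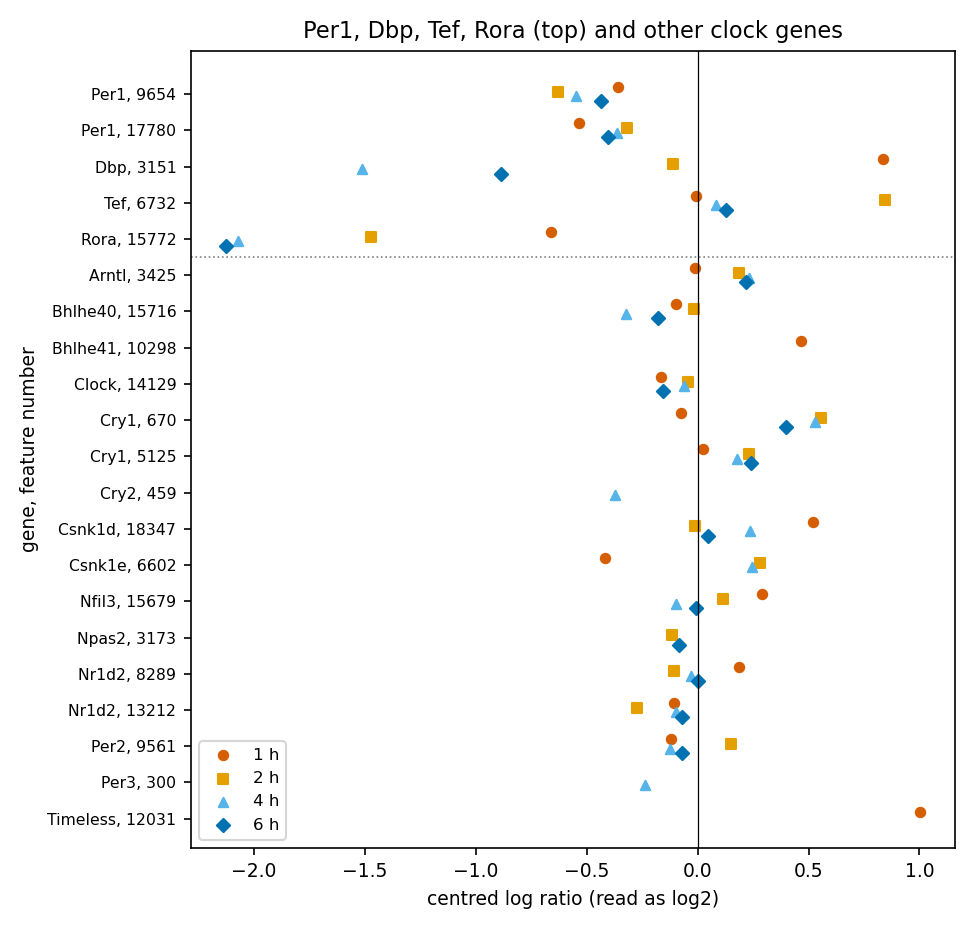
Centred log ratios (horizontal axis, read as log2) of the 5 features of Per1, Dbp, Tef and Rora above the dotted line and of 16 features of other clock genes below it (vertical axis, gene and feature number), 1 symbol per array. Below the line the symbols lie between -0.42 and 1.00, with Cry1 and Arntl to the right of 0 from 2 h on.

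In a limma fit of the mean of the 4 arrays against 0, run over all 8777 features, 0 features passed an adjusted p of 0.05 in either direction (0% positive, 0% negative), with 6.9% positive and 7.85% negative at an unadjusted p under 0.05. Of the 10 clock features 0 passed, and 1 (Cry1 feature 670, mean 0.35 ± 0.29, SD over the 4 times) was at an unadjusted p under 0.05, with an adjusted p of 0.286. For the slope on log2 hours limma again placed 0 of 8777 features past an adjusted p of 0.05 (0% in each direction), with 8.85% positive and 6.61% negative at an unadjusted p under 0.05, and 0 of the 10 clock features at either level. Without the 1 h array 6.47% of features passed as positive and 5.59% as negative for the mean, and 1 of the 10 clock features did: Cry1 feature 670 was positive, with a mean of 0.50 over 2, 4 and 6 h (limma, adjusted p = 0.0188), while its other feature had 0.22 (adjusted p = 0.0575) and Arntl 0.21 (0.0582). These p-values rest on the spread from one time to another, and the labels name no separate replicates.

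Markers of other cells were counted in the fit without the 1 h array as well, beside the same 6.47% positive and 5.59% negative of all features. Of 11 features of 8 astrocyte markers 3 passed as positive in limma: Aldoc, a glycolytic enzyme (mean 0.38, adjusted p = 0.0286), the glutamate transporter Slc1a3 (0.36, 0.0285) and the filament gene Gfap (0.38, 0.0254). Of 4 features of choroid plexus markers 2 passed as negative, Ttr, which encodes transthyretin (-0.73, adjusted p = 0.0120), and 1 feature of Kl (-2.95), while the other complete Kl feature had -0.13. The astrocyte features ran from -0.36 to 0.53 at 1 h and from -0.23 to 0.45 at 6 h. Of 9 features of oligodendrocyte markers 1 passed as positive. Of 6 features of pyramidal cell, 3 of thalamus, 6 of vessel and 4 of blood markers, 1 each passed as negative. The pyramidal cell feature was 1 of Nectin3 (mean -2.78), whose other complete features had -0.05 and 0.01, and the blood feature was Car1 (-3.22). Of 3 features of granule cell and 12 of interneuron markers 0 passed. At an unadjusted p under 0.05 the granule cell features had 1 positive and 1 negative and the interneuron features 2 positive. The part of these cells in the Cry1 ratios was not tested.

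Signals that reach Per1 from outside the loop run through CREB and its partners. Of 23 genes listed for this route 12 had values on all arrays, through 16 features, with medians of -0.01, 0.10, 0.10 and 0.03 at 1, 2, 4 and 6 h. None passed for the mean or the slope over all arrays in limma, with 2 positive at an unadjusted p under 0.05 for the mean, Camk4 and Crem (6.9% of all features), and 1 positive and 2 negative for the slope (8.85% and 6.61%). Without the 1 h array 2 passed as positive and 1 as negative, beside 6.47% and 5.59% of all features. These were Prkacb, a catalytic subunit of protein kinase A (feature 8430, -0.41, 0.60, 0.59 and 0.58, adjusted p = 0.00928), Camk4, a calcium-activated kinase of CREB (0.12, 0.30, 0.33 and 0.33, adjusted p = 0.0299), and Sik1, a CREB target that restrains CREB coactivators (0.57, -0.51, -0.90 and -0.55, adjusted p = 0.0226). The second feature of Prkacb read otherwise, at 0.11, -0.52, 0.21 and 0.12 (adjusted p = 0.766 without the 1 h array). A second Sik1 feature read -0.07 at 1 h and -0.29 at 2 h. Crem, which encodes activators and inhibitors of cyclic AMP elements, read 0.25, 0.11, 0.41 and 0.38.

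Proteins that modify or degrade clock proteins were represented by 15 of 26 listed genes with 25 features, with medians of -0.19, -0.00, 0.02 and 0.01 at 1, 2, 4 and 6 h. None passed in limma for the mean or the slope. At an unadjusted p under 0.05 there were 1 positive and 1 negative for the mean, Ppp1ca and Huwe1 (6.9% and 7.85% of all features), and 3 positive and 1 negative for the slope (8.85% and 6.61%). Csnk2a1, a catalytic subunit of casein kinase 2, had 3 features that differed: one read 0.14, -0.08, -0.71 and -0.51, another 0.38 at 2 h and 0.57 at 4 h, and the third -0.32 at 1 h and 0.29 at 2 h. Ppp1ca, a catalytic subunit of protein phosphatase 1, read 0.40, 0.19, 0.17 and 0.22 in one feature and -0.19, 0.01, -0.12 and -0.06 in the other. Huwe1, a ubiquitin ligase that acts on REV-ERBα, read -0.31, -0.15, -0.16 and -0.36, and its second feature -0.30, -0.32, 0.04 and -0.21.

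Among 20 genes listed as outputs of the clock, 14 had 18 features with values on all arrays, with medians of -0.04, -0.04, 0.00 and 0.03 at 1, 2, 4 and 6 h. None passed in limma for the mean or the slope, with 0 at an unadjusted p under 0.05 for the mean and 4 positive and 4 negative for the slope, beside 8.85% and 6.61% of all features. Wee1, the mitotic kinase under E-box control in liver, read 0.01, -0.08, 0.68 and 0.12 in one feature and -0.24, -0.06, 0.27 and 0.24 in the other. Klf10, a zinc finger repressor, read 0.05, -0.15, -0.22 and -0.55, and its other feature 0.10 at 1 h and -1.49 at 4 h. Pdk4, a kinase that inactivates pyruvate dehydrogenase, read 0.57, 0.27, 0.01 and 0.07, and Vip, the peptide that couples neurons of the suprachiasmatic nucleus, read -0.10, -0.02, 0.36 and 0.32.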

How the data were processed

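The deposited table holds 1 log ratio of the channels per feature and array, made by the authors and read here as log2. The scanner, background correction, normalization, log base and direction are not given in the sources used here, and no intensities were used, so signal over background, dye effects and saturation were not examined and the number of arrays limits the precision. Exact 0, which filled 24.9% to 37.4% of the values, was treated as no value. The medians of the remaining values were 0.0074, 0.0093, 0.017 and 0.0052 at 1, 2, 4 and 6 h and were subtracted. Features were named through the platform annotation (13738 with 1 symbol, 52 with several, 2491 with none), and all 5 features of the 4 genes matched the RefSeq gene table of GRCm38.p6 by Entrez identifier. Features of a gene were kept apart.

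With limma 3.58.1 in R 4.3.3, lmFit and eBayes tested the mean of the 4 arrays and the slope on log2 hours over the 8777 features with values on all arrays, as two-sided tests adjusted by Benjamini and Hochberg, at 0.05. The scripts were tested on simulated data with 200 changed features. Genes named beside the 4 were the 3 nearest features by root mean square difference, the features within 5 numbers, the main clock genes wherever they had a value, and the 4 features of largest absolute mean in each list. Single other features were named after their values were seen. The genes, lists and tests were chosen with earlier results of these data known. Alternatives were exact 0 as a value, values on 3 arrays, no centring, equal spread, quantile normalization, array weights, gene means, natural logarithms, each array left out, and another measure of likeness. Background correction, a filter on dim spots and slides as a block could not be varied.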

Additional observations from a re-analysis of the deposited data

Results flagged for a closer look

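Dbp had values past 0.5 in opposite directions at different times: 0.84 at 1 h, -1.51 at 4 h and -0.89 at 6 h. With 1 array per time the difference between these times was not tested, and the 1 h array ran apart from the later ones over all features. No other feature of the 4 genes did so, and no group had enough arrays for a check of single arrays that stand apart.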

How the results depend on the processing

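The log base, the ratio's direction, dye bias and signal strength set the limits of these values, and 1 array per time allows no error at a single time. The count of features past the adjusted p for the mean, 0, became 19 with values on at least 3 arrays, 11 with quantile normalization and 2406 with array weights, and ran between 0 and 1059 with single arrays left out, 1059 being the count without the 1 h array. For the slope that range was 0 to 1, with 1 feature called without the 4 h array. Read as natural logarithms, the means of Per1 were -0.71 (feature 9654) and -0.58 (feature 17780), and that of Rora was -2.28. Relative to neighbouring feature numbers, a comparison chosen after seeing the data, the mean of Per1 feature 17780 was -0.26 and that of Rora 0.31, the opposite sign to its own mean of -1.58. With single arrays left out, the means ran from -0.54 to -0.45 and from -0.43 to -0.36 for the Per1 features, from -0.84 to -0.05 for Dbp (lowest without 1 h, highest without 4 h), from 0.07 to 0.35 for Tef (lowest without 2 h) and from -1.89 to -1.40 for Rora. The median of the mean ratios of the other clock genes, 0.04, ran from -0.0051 to 0.079 and turned negative without the 1 h array. By Pearson correlation in place of the root mean square difference, 0 of 3 nearest features were shared for each of the 5 features. No paired analysis was possible because each time has 1 array.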
